A study of Mus musculus with 10 samples.

Results

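The 35 genes described here are named genes of the cell cycle and of DNA replication. They were chosen by name, with earlier results of these data known. They run from the D-type cyclins that open the cycle, through the enzymes that copy DNA and supply its building blocks, to the kinases of mitosis and the proliferation marker Mki67. All 35 had probes on the array (56 probes), and 31 were measured well enough to be tested, out of 18921 genes tested in all. Their RNA was measured in the livers of 10 mice on 2-colour arrays, 5 wild type (WT, genotype wt/wt) and 5 without the glucagon receptor gene (KO, genotype GCGR ko/ko). The WT livers came from 3 males (WT 1, 2 and 5) and 2 females (WT 3 and 4), and the KO livers from 2 males (KO 1 and 5) and 3 females (KO 2, 3 and 4). Strain, age, feeding, the deleted part of the gene and the way the KO line was kept are not given in the sources used here. Each liver's Cy5-labelled RNA was hybridised with the same Cy3-labelled universal mouse reference, a pool of mouse RNA from Stratagene, so every value is a log2 ratio of liver over reference.

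A cell enters the cycle when D-type cyclins and their kinases release E2F transcription factors from the RB proteins. E2F then switches on genes for origin licensing, for the fork and for nucleotide synthesis, and a later wave of genes, held back by the DREAM complex in resting cells, builds the mitotic apparatus. Hepatocytes of an adult liver are mostly quiescent but can re-enter the cycle, as after removal of part of the liver. Glucagon is the fasting hormone whose receptor is found mainly on hepatocytes, and the comparison of KO with WT livers asks what changes when that receptor is missing.

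Gcgr matched the label in every liver, with ratios of 7.74 to 8.14 in WT and 0.28 to 0.36 in KO livers. Hepatocyte markers were high in all of them (9 of 10 tested, list mean 6.82 to 7.40 in WT and 7.0 to 7.12 in KO livers). Of these, Tat alone passed for genotype, lower in KO livers with no overlap (log2 difference -0.63, limma adjusted p = 0.0059). The arrays lay on 4 slides, all scanned on 1 day. The first 2 slides were brighter, with a median net Cy5 signal per array of 108 to 130, against 56.7 to 76.1 on the other two. Slide 1 held WT 1, WT 2, KO 1 and KO 2, slide 2 held KO 3 and KO 4, slide 3 held WT 3, WT 4 and KO 5, and slide 4 held WT 5. The number of arrays limits the precision of every value. In whole liver, fewer cells of a type and less RNA per cell cannot be told apart.

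The promoters of 28 of the 35 genes were in the RefSeq table of build GRCm38.p6, and the 250 bases before each start were searched on both strands for 4 short motifs of cell cycle promoters. Ccna2, Ccne2, Ccnd1, Ccnd2, Aurkb, Mcm4 and Foxm1 had no entry. The CCAAT box (CCAAT) was found in 21 of the 28 genes (75%), against 33.8% of all 32851 promoters in the table. The GC box (GGGCGG) was found in 22 of 28 (78.6%), against 32.7% of all promoters. An E2F site (TTTCCCGC, TTTCGCGC, TTTGCCGC or TTTGGCGC) was found in 6 of 28 (21.4%), namely Cdc25a, Cdc6, Cdk1, Mcm5, Mcm6 and Mcm7, against 1.86% of all promoters. The cell cycle genes homology region, a DREAM binding element (CHR, here TTTGAA or TTCGAA), was found in 8 of 28 (28.6%), namely Bub1b, Ccnb2, Cdc20, Cdk1, Mcm2, Mcm7, Mki67 and Top2a, against 17.1% of all promoters. Among the 28 genes (31 windows), a gene with several starts was counted once, as a match if any of its windows matched. The shares of all promoters count each window singly, so the 2 percentages differ in unit. A match is a description of letters and not a binding site.

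The 150 bases before the start are shown for the genes whose levels differed between livers and that had an entry (Tk1, Ccnb1, E2f1 and Cdkn2c), and for Mki67 and Cdk1, whose promoters hold CHR motifs. They are written 5′ to 3′ along the gene, in lower case with the 4 motifs in capitals, and all 6 genes lie on the minus strand of GRCm38.p6. The stretches are chr11:117826015-117826164 for Tk1, chr13:100786487-100786636 for Ccnb1, chr2:154569427-154569576 for E2f1, chr4:109666757-109666906 for Cdkn2c (the farther upstream of its 2 starts), chr7:135716380-135716529 for Mki67 and chr10:69352913-69353062 for Cdk1.
Tk1: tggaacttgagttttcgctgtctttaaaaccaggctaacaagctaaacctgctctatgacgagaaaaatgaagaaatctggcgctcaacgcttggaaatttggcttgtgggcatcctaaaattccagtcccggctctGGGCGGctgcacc
Ccnb1: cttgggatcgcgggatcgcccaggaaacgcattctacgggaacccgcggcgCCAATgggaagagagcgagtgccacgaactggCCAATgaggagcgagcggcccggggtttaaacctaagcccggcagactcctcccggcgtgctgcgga
E2f1: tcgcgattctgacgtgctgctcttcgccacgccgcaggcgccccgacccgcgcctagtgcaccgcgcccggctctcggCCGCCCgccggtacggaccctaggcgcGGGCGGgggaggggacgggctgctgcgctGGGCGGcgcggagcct
Cdkn2c: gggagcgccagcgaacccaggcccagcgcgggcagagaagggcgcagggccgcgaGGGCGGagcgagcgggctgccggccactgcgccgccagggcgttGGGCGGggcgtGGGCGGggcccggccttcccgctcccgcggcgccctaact
Mki67: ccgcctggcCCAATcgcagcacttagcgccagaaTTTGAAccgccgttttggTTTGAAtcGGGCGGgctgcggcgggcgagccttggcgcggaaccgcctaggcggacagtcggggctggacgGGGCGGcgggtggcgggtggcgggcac
Cdk1: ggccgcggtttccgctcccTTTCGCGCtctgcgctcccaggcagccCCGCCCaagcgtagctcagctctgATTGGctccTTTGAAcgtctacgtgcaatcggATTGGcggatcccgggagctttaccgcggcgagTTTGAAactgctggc
Tk1 holds 1 GC box at position -13, counted from the start. Ccnb1 holds CCAAT at -99 and -67. E2f1 and Cdkn2c hold 3 GC boxes each in this stretch. Mki67 holds CHR motifs at -116 and -98, and Cdk1 at -71 and -15 beside an E2F site at -131.

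The levels of these genes in liver were low against the pooled reference. Of the 31 genes tested, 29 had a ratio below 0 in every one of the 10 livers (93.5%, against 33.2% of all genes tested), and 22 had a mean more than 4-fold below the reference (71%, against 5.6% of all genes). The median of the 31 mean ratios was -2.77, against 0.14 over all genes. Mki67, the nuclear protein used to mark dividing cells, was the lowest, with a mean of -5.27. Its net signal ran from 248 to 698 in the livers, while the median in the reference was 24538. Birc5, the passenger protein survivin, had a WT mean of -4.73 and Cdc20, an activator of the anaphase-promoting complex, one of -4.64. The 2 genes not below 0 in every liver were Ccnd1, above 0 in 4 of the 5 female livers, and Cdkn1b, the CDK inhibitor p27, above 0 in KO 2 alone (0.06). These ratios depend on how much of each RNA the reference pool held, so they rank the genes against that pool and not against each other.

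**Figure D1:**
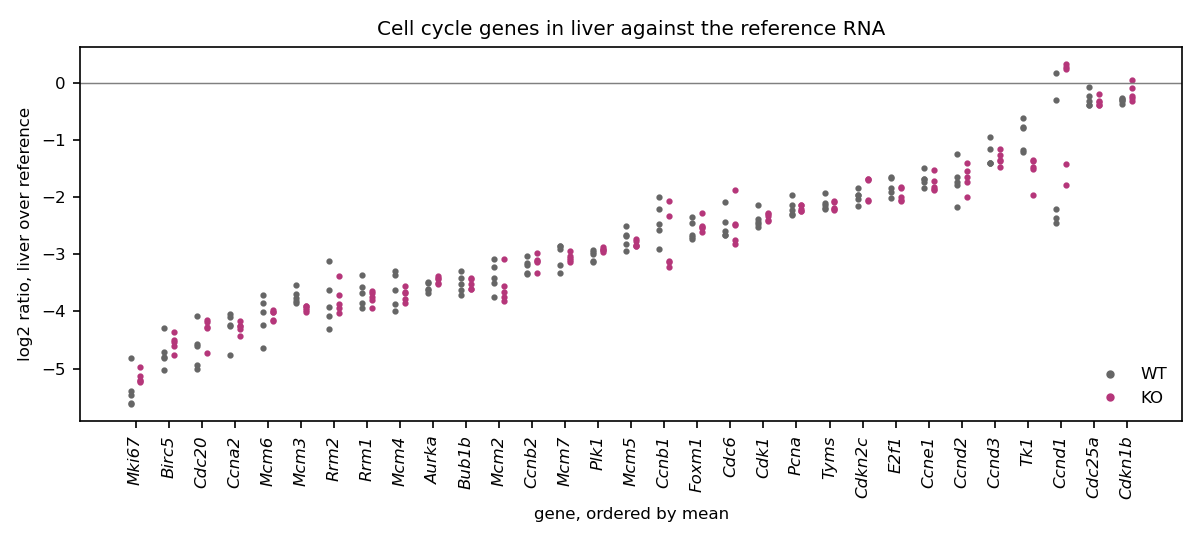
Log2 ratio of liver over reference (y axis) for the 31 cell cycle genes tested, ordered by mean (x axis), with 1 point per liver (grey WT, purple KO). All genes except Ccnd1 and Cdkn1b lie below 0 in every liver, and Mki67 is the lowest with a mean of -5.27.

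Top2a, Ccne2, Aurkb and Bub1 were not tested, because none of their 7 probes was well above background in Cy5 on 4 or more of the 10 arrays. Top2a, the topoisomerase that untangles replicated DNA, came closest, with 1 WT and 2 KO livers above background at its best probe. At that probe WT livers 1 to 5 read -4.76, -4.56, -4.51, -3.75 and -4.02, and KO livers 1 to 5 read -4.35, -4.40, -4.43, -4.39 and -4.28. The groups overlapped, and most of these readings are not well above background. No probe of Ccne2 (cyclin E2), Aurkb (the kinase of the chromosomal passenger complex) or Bub1 (a spindle checkpoint kinase) was above background in any liver. Of the 31 genes tested, 29 were well above background in all 10 livers. The exceptions were Cdc6, a licensing factor (4 WT and 3 KO livers), and Ccnb1 (5 WT and 4 KO livers).

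KO livers differed from WT livers in 2 of the 31 genes, with Tk1 lower and Ccnd1 higher (6.45%, limma with a term for sex, Benjamini-Hochberg adjusted p under 0.05 over all genes). Over all genes tested the share was 5.96% (545 higher and 582 lower in KO), so the share among the cell cycle genes was close to that of the whole array. At an unadjusted p under 0.05 there were 3 of 31 (9.68%), against 20.9% of all genes. The median KO minus WT difference was -0.0061 over the 31 genes and -0.0028 over all genes. KO livers lay entirely to one side of WT livers in 2 genes, Tk1 and Mcm3 (6.03% of all genes).

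Tk1, the cytosolic thymidine kinase that salvages thymidine for DNA synthesis, fell. WT livers 1 to 5 read -1.20, -1.16, -0.78, -0.76 and -0.62, and KO livers 1 to 5 read -1.51, -1.37, -1.35, -1.46 and -1.95. Every KO liver lay below every WT liver, KO 5 was the lowest, and the WT livers of slide 1 were lower than those of slides 3 and 4. The WT mean was -0.91 ± 0.26 and the KO mean -1.53 ± 0.25 (SD, n = 5 each). The log2 difference was -0.68 (SE 0.12, limma adjusted p = 0.0088), a 1.60-fold fall. It was -0.74 in males (SE 0.18, limma adjusted p = 0.058) and -0.62 in females (SE 0.18, adjusted p = 0.079). Neither sex passed alone. With slide as a block the difference over all livers was -0.58 (adjusted p = 0.014). Within slide 1 it was -0.26, and within slide 3 it was -1.18. Slide 3 set the male KO 5 against the females WT 3 and WT 4, and in slide 1 KO 2 alone was female. The within-slide values therefore mix genotype with sex. The call was lost with median centring in place of loess (-0.61, adjusted p = 0.057).

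In the array files' own coordinates (build mm7 per the file headers) the probe for Tk1 covers bases 117924836 to 117924895 of chromosome 11, 2.72 Mb from the Gcgr probe. Birc5 lies 2.68 Mb from Gcgr and differed by 0.18 (adjusted p = 0.49). Of 160 genes tested within 5 Mb of Gcgr, 10 passed for genotype (6.25%). Whether the position of Tk1 near the targeted gene has a part in its difference was not tested.

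Ccnd1, cyclin D1, which partners Cdk4 and Cdk6 at the start of the cycle, rose in KO livers once sex was taken into account. Male livers read -2.21, -2.45 and -2.36 in WT 1, 2 and 5 and -1.78 and -1.42 in KO 1 and 5. Female livers read -0.30 and 0.18 in WT 3 and 4 and 0.25, 0.34 and 0.28 in KO 2, 3 and 4. Within each sex every KO liver lay above every WT liver, while the groups overlap when the sexes are pooled. The log2 difference was 0.55 (SE 0.12, limma adjusted p = 0.022), or 1.46-fold. It was 0.74 in males (SE 0.15, adjusted p = 0.033) and 0.35 in females (SE 0.15, adjusted p = 0.24), and the difference between the sexes, -0.39 (SE 0.21), did not pass (adjusted p = 0.48).

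The Ccnd1 call depended on the sex term, without which the difference was 0.96 with an adjusted p of 0.48, and on single livers. Without WT 3 it was 0.50 (adjusted p = 0.081) and without KO 1 it was 0.57 (adjusted p = 0.055). With slide as a block it was 0.59 (adjusted p = 0.026). Within slide 1 the males alone gave 0.55, all 4 livers gave 1.57, and within slide 3, where the KO liver was male and both WT livers female, the value was -1.36. Endothelial markers moved with genotype too. The mean of the 10 markers was 2.69 to 3.18 in WT and 3.29 to 3.54 in KO livers, and all 10 were well above background in every liver. Lyve1, Oit3 and Pecam1 rose while none fell (3 of 10, against 5.96% of all genes). A second Oit3 probe gave 0.22 and did not pass (limma adjusted p = 0.12 over probes). In the other marker lists, Klf1 (1 of 8 erythroid and progenitor markers, -0.63) and Tat (1 of 9 hepatocyte markers, -0.63) fell. Cd79b (1 of 13 T, B and NK cell markers, 0.48) rose, and no Kupffer cell, macrophage or neutrophil marker passed. The part of these markers in the Ccnd1 difference was not tested.

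**Figure D2:**
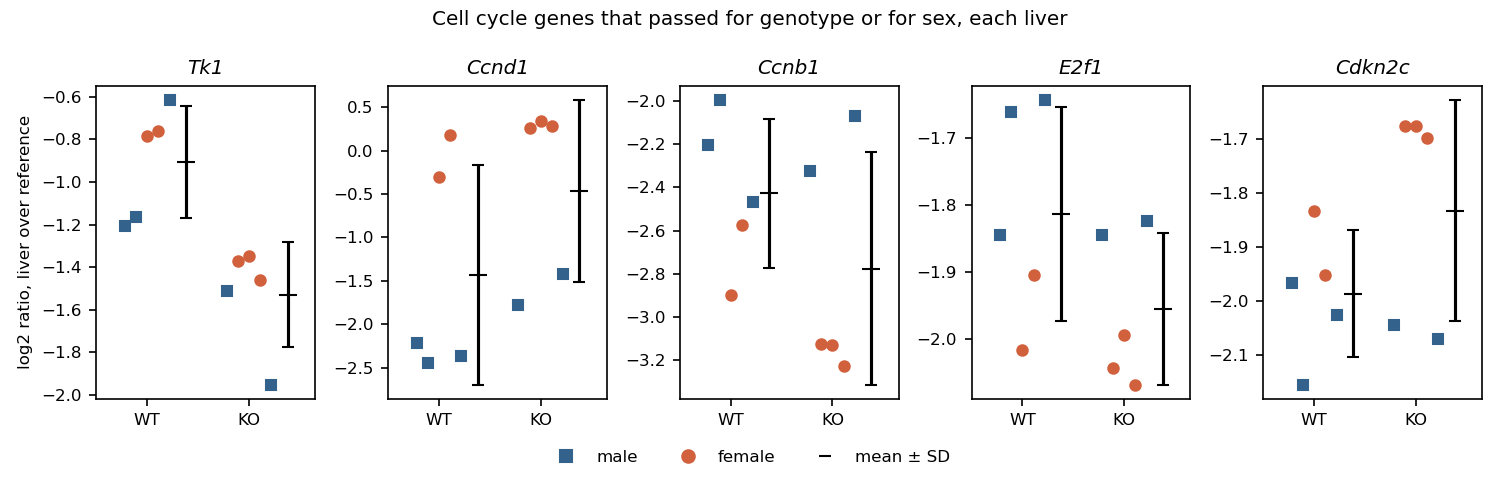
Log2 ratio of liver over reference (y axis) in each WT and KO liver (x axis) for the 5 genes that passed for genotype or sex, with squares for males, circles for females and bars for the group mean ± SD (n = 5); the y axes differ. Every KO liver is below every WT liver for Tk1, and the sexes are far apart for Ccnd1.

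Of the other D-type cyclins, Ccnd2 differed by -0.02 and Ccnd3 by -0.05 between KO and WT, and neither passed. The genes of S-phase entry did not pass either, with -0.04 for Ccne1 (cyclin E1) and -0.07 for Cdc25a, the phosphatase that activates the S-phase kinase. Cdkn1b read -0.36, -0.32, -0.25, -0.27 and -0.30 in WT and -0.26, 0.06, -0.22, -0.31 and -0.09 in KO livers 1 to 5. KO 2, 3 and 5 were above all WT livers and KO 1 and 4 among them, and the difference of 0.13 (SE 0.08) did not pass (limma adjusted p = 0.41). A second Cdkn1b probe gave -0.17. For the transcription factors the differences were -0.10 for E2f1 and 0.08 for Foxm1, which drives the mitotic gene programme.

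Mcm3 came closest to passing among the rest. It is a subunit of the hexameric helicase that is loaded at origins and opens the DNA. It read -3.84, -3.77, -3.54, -3.69 and -3.81 in WT livers and -4.01, -3.97, -3.91, -3.90 and -3.93 in KO livers. All KO livers lay below all WT livers, by a small margin. The log2 difference was -0.24 (SE 0.06, limma adjusted p = 0.053), and it passed in 2 of 25 tested alternatives, with adjusted p-values of 0.037 to 0.77. The 2 were slide as a random block (-0.23, 0.037) and testing only genes above background on all 10 arrays (0.045). With Cy5 alone the difference was -0.07 and with median centring -0.13. A second Mcm3 probe gave -0.11, with overlapping livers. The other licensing genes (Mcm2, Mcm4, Mcm5, Mcm6, Mcm7 and Cdc6) differed by -0.17 to 0.03.

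Pcna, the sliding clamp of the replication fork, read -2.22, -2.30, -2.14, -1.96 and -2.32 in WT and -2.24, -2.14, -2.21, -2.14 and -2.24 in KO livers. The KO livers lay inside the WT range, and the difference was -0.04 (SE 0.07). Of the enzymes of nucleotide supply other than Tk1, Tyms (thymidylate synthase), Rrm1 and Rrm2 (the subunits of ribonucleotide reductase) differed by -0.03, -0.10 and 0.04, and none passed.

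The 5 mitotic genes tested had differences of 0.00 to 0.32, and none passed. Aurka, the spindle pole kinase, read -3.49, -3.63, -3.68, -3.61 and -3.50 in WT and -3.52, -3.42, -3.39, -3.50 and -3.43 in KO livers. KO 1 and KO 4 lay among the WT livers and the difference was 0.14 (SE 0.07, limma adjusted p = 0.27). Plk1, the kinase that drives entry into mitosis, read -2.93, -3.12, -3.14, -2.95 and -2.99 in WT and -2.96, -2.86, -2.90, -2.92 and -2.92 in KO livers. KO 1 lay among the WT livers and the other 4 above them, and the difference was 0.11 (SE 0.07, limma adjusted p = 0.39).

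Cdc20 read -4.60, -4.94, -5.01, -4.07 and -4.57 in WT and -4.15, -4.73, -4.18, -4.28 and -4.26 in KO livers. WT 4 was the highest of all 10 livers, and the difference of 0.32 (SE 0.18) did not pass (limma adjusted p = 0.34). Mki67 read -5.46, -5.62, -5.61, -4.82 and -5.40 in WT and -5.13, -5.22, -5.20, -4.98 and -5.24 in KO livers. WT 4 was again the highest, with all 5 KO livers above the other 4 WT livers, and the difference was 0.20 (SE 0.13, limma adjusted p = 0.45). Without WT 4 both genes passed, Cdc20 at 0.54 (adjusted p = 0.043) and Mki67 at 0.37 (adjusted p = 0.037), and the count of cell cycle genes that passed was 4.

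Among the cyclins of S, G2 and M phase with their kinase, Ccna2 differed by 0.02, Ccnb2 by 0.09, Cdk1 by 0.04 and Ccnb1 by -0.20, and none passed. For the 29 genes that did not pass, the 95% intervals of the KO minus WT difference lay between -0.52 (Mcm2) and 0.71 (Cdc20), and 27 of them lay inside -0.5 to 0.5. A p that misses the threshold does not show that the groups are alike, and these intervals give the sizes that the data allow.

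**Figure D3:**
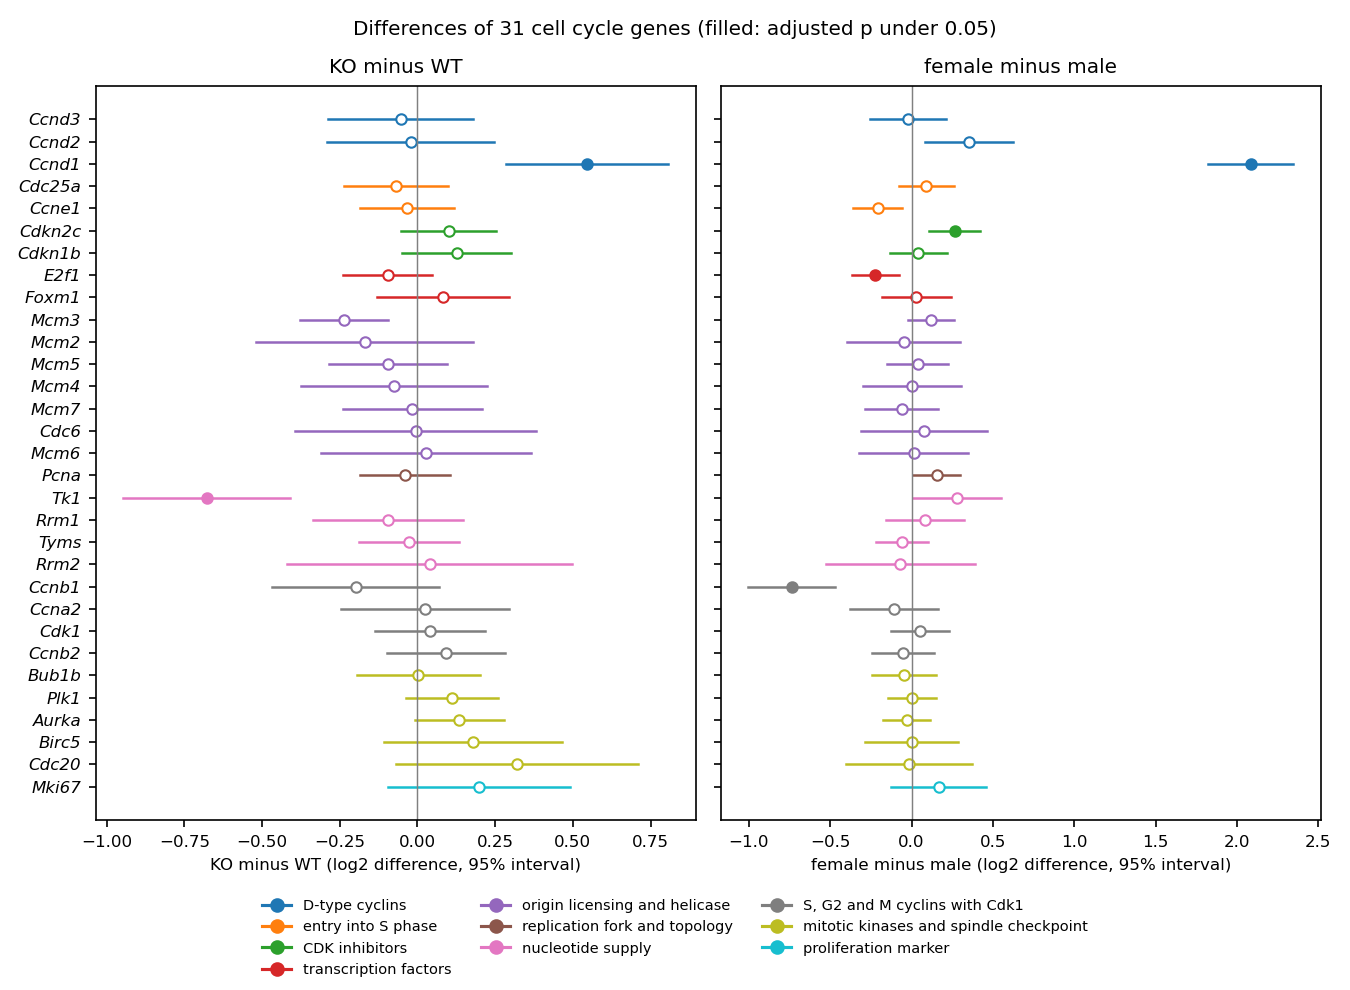
Log2 difference of KO minus WT (left) and female minus male (right) on the x axes for the 31 genes tested, with 95% intervals, coloured by role and filled where the adjusted p is under 0.05; the x axes differ. Tk1 (-0.68) and Ccnd1 (0.55) passed on the left, and Ccnd1 (2.09), Ccnb1 (-0.74), Cdkn2c (0.26) and E2f1 (-0.22) on the right.

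Female and male livers also differed in some of these genes. In the same model 4 of the 31 passed for female minus male (12.9%, against 11.5% of all genes), 2 higher and 2 lower in females. The sexes did not overlap in 6 genes, Ccnd1, Ccnb1, E2f1, Cdkn2c, Pcna and Ccne1 (9.22% of all genes). At an unadjusted p under 0.05 there were 8 (25.8%, against 24.7%).

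Ccnd1 was higher in every female than in every male liver. The mean was 0.15 ± 0.26 in females and -2.04 ± 0.43 in males (SD, n = 5 each), and the log2 difference was 2.09 (SE 0.12, limma adjusted p = 1.2e-06), or 4.25-fold. It was 2.40 within slide 1 and 1.36 within slide 3. The only female of slide 1 was KO 2 and the only male of slide 3 was KO 5. Both within-slide values therefore mix sex with genotype. Some endothelial markers were also higher in females, with 3 of 10 passing (Oit3, Fcgr2b and Kdr), against 11.5% of all genes. None passed as lower, and the median difference was 0.28. The list mean was 3.18 to 3.54 in females against 2.69 to 3.32 in males. A second Oit3 probe gave 0.01 (limma adjusted p = 0.94 over probes). The part of these markers in the sex difference of Ccnd1 was not tested. Ccnd2 differed by 0.35 (adjusted p = 0.094) and Ccnd3 by -0.02, so the 3 D-type cyclins had unequal sex differences in these livers, a contrast that was not itself tested.

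Ccnb1, cyclin B1, the activator of Cdk1 in mitosis, was lower in females. It read -2.20, -2.0, -2.47, -2.32 and -2.07 in the males WT 1, 2 and 5 and KO 1 and 5, and -2.90, -2.57, -3.12, -3.13 and -3.23 in the females WT 3 and 4 and KO 2, 3 and 4. The sexes did not overlap, and the KO females were the lowest. The log2 difference was -0.74 (SE 0.12, limma adjusted p = 0.0023), or 1.67-fold, and it was -0.95 within slide 1 and -0.66 within slide 3. As for Ccnd1, these within-slide values mix sex with genotype. The net signal of Ccnb1 was low, at 42.9 to 216, and 1 KO liver was not well above background. The probe's 2 companions, each above background in 2 livers, gave -0.12 and 0.26. The other genes of its group differed little between the sexes, with -0.11 for Ccna2, -0.05 for Ccnb2 and 0.05 for Cdk1.

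Cdkn2c, the CDK inhibitor p18, was higher in females. It read -1.97, -2.15 and -2.03 in WT and -2.04 and -2.07 in KO males, against -1.83 and -1.95 in WT and -1.68, -1.68 and -1.70 in KO females. The sexes did not overlap, and the 3 KO females were the highest. The log2 difference was 0.26 (SE 0.07, limma adjusted p = 0.032), and a second probe gave 0.37 (adjusted p = 0.013 over probes). E2f1, the factor that switches on S-phase genes, was lower in females. It read -1.84, -1.66 and -1.64 in WT and -1.84 and -1.82 in KO males, against -2.02 and -1.90 in WT and -2.04, -1.99 and -2.07 in KO females. The log2 difference was -0.22 (SE 0.07, limma adjusted p = 0.048), and a second probe gave -0.18 (adjusted p = 0.14). Neither call was firm. With slide as a block Cdkn2c was at 0.29 (adjusted p = 0.066) and E2f1 at -0.21 (0.16), and Cdkn2c passed in 13 and E2f1 in 7 of the 24 alternatives tested. Within slides 1 and 3 Cdkn2c was 0.38 and 0.18 higher in females, and E2f1 differed by -0.26 and -0.14. The only female of slide 1 (KO 2) and the only male of slide 3 (KO 5) were KO livers, so these values mix sex with genotype.

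The probes of Tyms disagreed. The probe used differed by -0.06 between the sexes and a second by 0.06, but another read 1.52 in males and 0.39 in females, a difference of -1.11 (adjusted p = 0.001 over probes). That probe was also the only one of the 3 above the reference. Of 12 erythroid and haematopoietic progenitor markers, 8 were tested, and Alas2 alone passed for sex (-2.19, lower in females). The list's median sex difference was 0.09, while its mean was 0.93 to 1.19 in males and 0.72 to 0.93 in females. Ermap and Rhag were among those not well above background, and the part of these markers in the sex differences was not tested. A difference of the KO effect between the sexes passed by limma in 0 of the 31 genes, and over all genes in 6 (0.0317%). At an unadjusted p under 0.05 there were 0 of the 31, against 12.5% of all genes. The largest such difference among the 31 was -0.45 for Ccnb1 (SE 0.21). A missed threshold does not show that the KO effect is alike in the sexes.

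The cell cycle genes varied more among WT than among KO livers. The SD was larger in WT than in KO livers for 25 of the 31 genes (80.6%, against 63.1% of all genes). The median SD was 0.20 in WT and 0.12 in KO livers, against 0.16 and 0.13 over all genes. WT 3 was the lowest WT liver for 16 of 31 genes (51.6%, against 17% of all genes) and WT 4 the highest for 14 (45.2%, against 21.9%). Both are females of slide 3, so neither sex nor slide separates them. Mcm6 shows it, at -4.64 in WT 3 and -3.72 in WT 4, with the KO livers between -4.17 and -3.97. The same 2 livers stood at -4.77 and -4.04 for Ccna2 and at -5.03 and -4.29 for Birc5. Markers of T, B and NK cells were also highest in WT 4 (mean -0.02, against -0.55 to -0.25 in the other 9 livers), and its hepatocyte marker mean of 6.82 was the lowest. Their part in the spread was not tested.

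**Figure D4:**
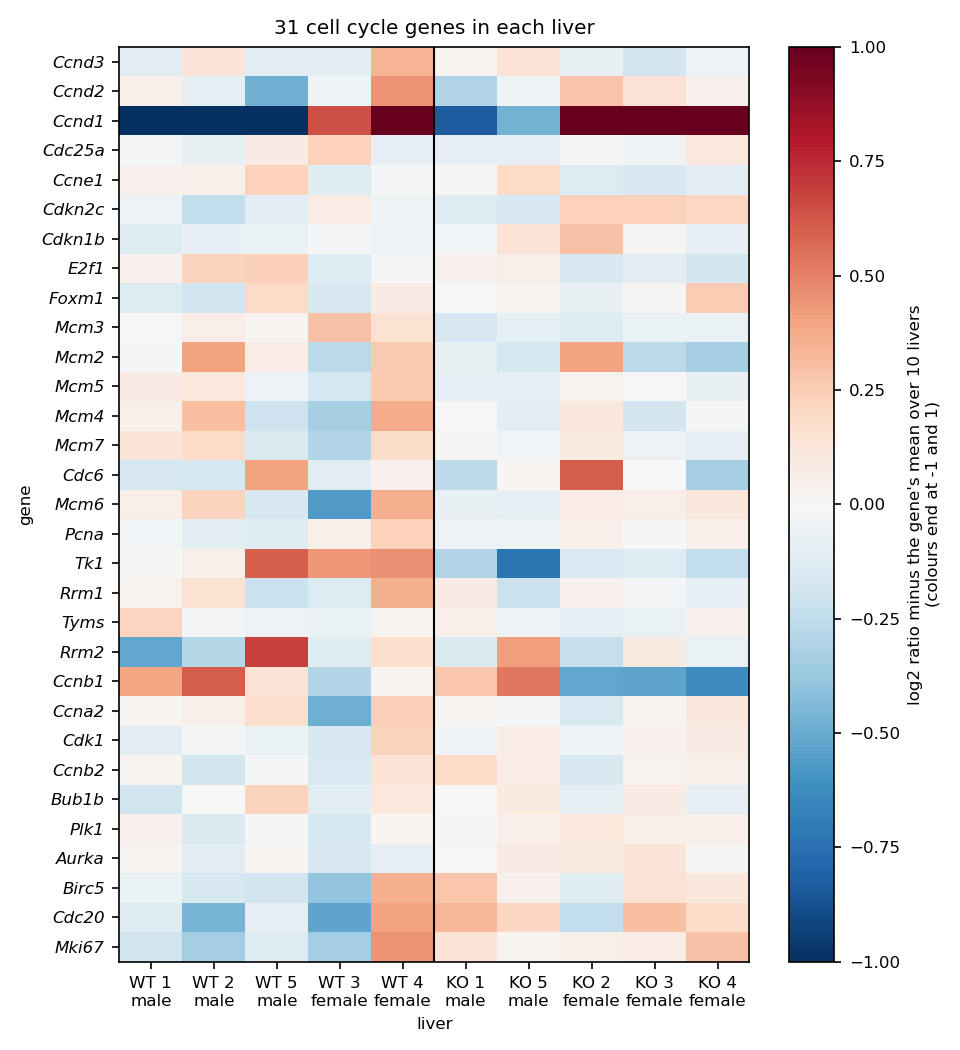
Log2 ratio of each of the 31 genes (y axis) in each liver (x axis, males before females in each genotype) minus the gene's mean over 10 livers, in colour (red higher, blue lower, ending at -1 and 1). WT 3 is mostly blue and WT 4 mostly red, and Ccnd1 separates the sexes.

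The rest of the cell cycle machinery was read from 5 wider lists. Among CDKs, cyclins and CDK inhibitors, 3 of 19 genes tested passed for genotype, 2 higher and 1 lower in KO. Cdkn1a, the p53-induced CDK inhibitor p21, rose by 0.60 (SE 0.15, limma adjusted p = 0.037), from -2.89, -2.64, -2.82, -2.30 and -2.88 in WT to -2.54, -2.01, -2.12, -1.90 and -1.76 in KO livers, and WT 4 and KO 1 were the livers that overlapped. Pkmyt1, a kinase that holds Cdk1 inactive, rose by 0.51 (SE 0.11, adjusted p = 0.017). Ccnf, cyclin F, a subunit of a ubiquitin ligase, fell, from -0.23, 0.10, -0.56, -0.41 and 0.03 in WT to -0.65, -1.0, -1.08, -1.29 and -0.71 in KO livers with no overlap, a difference of -0.64 (SE 0.09, limma adjusted p = 0.0016).

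Among E2F, RB and related transcription genes, 1 of 21 passed. Tfdp2, a dimer partner of E2F proteins, fell by 0.51 on the log2 scale (adjusted p = 0.0075), with -0.36 (passed) and -0.25 (not passed) at its other 2 probes. E2f8, a repressor of the family, differed by 0.84 (limma adjusted p = 0.091 over genes). A second, dimmer probe passed at 0.76 (limma adjusted p = 0.019 over probes). The mean ratios of the 2 probes were far apart, at 5.12 and -1.38.

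Among genes of the replication origin and fork, 4 of 38 passed, and all 4 were lower in KO. Gins1, a subunit of the active helicase, read -1.71, -1.63, -1.80, -1.55 and -1.51 in WT and -2.15, -2.35, -2.18, -2.33 and -2.47 in KO livers. The groups did not overlap, the difference was -0.65 (SE 0.09, limma adjusted p = 0.0016), and its second probe passed at -0.52. Mcm10, a helicase activator, fell by 1.08 (SE 0.12, adjusted p = 0.00057). Its probe stood above the reference in every male (1.90 to 3.09) and below 0 in the 3 KO females. Prim2, the large primase subunit, fell by 0.33 (adjusted p = 0.013), and Rfc4, of the clamp loader, fell by 0.41 (adjusted p = 0.031). The list's median difference was -0.04.

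Among genes of mitosis and the spindle, 1 of 34 passed, Spc25 of the kinetochore, which rose by 0.79 (SE 0.17, limma adjusted p = 0.02). Among DNA damage checkpoint genes, 1 of 16 passed, Rad51b, which rose by 3.57 (SE 0.26). A second Rad51b probe was not above background in any liver. The shares of genes that passed in these lists stand against 5.96% of all genes.

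For sex, the list of CDKs, cyclins and inhibitors had 4 of 19 genes that passed (1 higher and 3 lower in females), the E2F and RB list 3 of 21 (1 higher, 2 lower), the replication list 3 of 38 (all lower), the mitosis list 0 of 34 and the checkpoint list 2 of 16 (both higher), against 11.5% of all genes. The lowest p-values belonged to Ccnf (-0.45) and Cdk6 (-0.37, not seen at its other 2 probes, with 0.06 and 0.05), Lin9 of the DREAM and MuvB core (-2.04, with 0.08 at the second probe that was measured) and Tfdp1 (-0.29), Mcm10 (-2.07) and Rnaseh2a (-0.40), and Rad51b (1.64) and Brca1 (0.49). Lin9 therefore rests on 1 probe, which read 1.31 to 3.57 in the other livers and 0.45 to 0.84 in the 3 KO females. A second probe did not pass for Tfdp1 (-0.22, limma adjusted p = 0.10 over probes) or for Rnaseh2a (-0.19, adjusted p = 0.22).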

How the data were processed

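RNA of 10 mouse livers was measured against 1 reference RNA on 2-colour Agilent arrays with no dye swap, scanned with Agilent Feature Extraction 10.7 per the submitters' processing notes (10.7.3.1 per the file headers). The deposited spot signals and local backgrounds are intensity values on a linear scale, per the file headers. The deposited LogRatio is the software's log10 ratio of Cy5 over Cy3, per the file headers. The value table the authors deposited holds log2 ratios, which correlated with those used here at 0.9994 to 0.9996, and how it was normalised is not stated in the labels.

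Flagged spots (169 to 291 per array) were left out, a choice made after seeing the data. Signals were corrected with normexp (offset 50) and ratios normalised by loess within each array. A probe was kept (26933 in all) where Cy5 was well above background on 4 or more of the 10 arrays, with 1 probe per gene, that of highest mean Cy5. The 18921 genes were fitted in limma 3.58.1 (R 4.3.3) with genotype and sex, and a second model added their interaction. P-values were adjusted by Benjamini-Hochberg over all genes (threshold 0.05), and genes past it are called passed, risen or fallen. The script was tested on simulated data.

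The cell cycle genes and lists were chosen with earlier results of these data known, so their counts are descriptions. Of the 56 probes, 47 were named through RefSeq accessions and 9 by symbol, and Cdk1 is Cdc2a in the files. Values in every liver are given for genes that passed, the 8 with the lowest genotype p, and Ccnd1, Mki67 and Pcna. From each wider list up to 4 genes that passed for genotype and 2 for sex were named, by lowest p. E2f8, Ccna2, Mcm6 and Birc5 were also named after their values were seen.

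Alternatives were other background corrections and normalisations, filters, slide and replicate blocks, no sex term, and each liver left out. Comparisons of males within slide 1 and of the sexes within slides were added after seeing the data.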

Additional observations from a re-analysis of the deposited data

Results flagged for a closer look

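Of 62 groups of 5 livers (31 genes in WT and in KO), 3 held a liver far from the other 4 by Dixon's ratio (4.84%), where chance gives about 1 in 20. Tk1 in KO 5 stood at -1.95, below the other KO livers at -1.51 to -1.35. Cdc20 in KO 2 stood at -4.73, below the other KO livers at -4.28 to -4.15. Mki67 in WT 4 stood at -4.82, above the other WT livers at -5.62 to -5.40. Without KO 5 the Tk1 difference was -0.58 and still passed (limma adjusted p = 0.022).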

How the results depend on the processing

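The count of all genes that passed for genotype (1127) was 303 with a replicate block, 619 with no sex term, 337 when outlier spots were removed only after background correction, 279 with median centring (201 higher and 78 lower in KO) and 590 to 1173 with 1 liver left out. For sex (2183) it was 139, 782 and 916 with the replicate block, late outlier removal and median centring. Cell cycle genes that passed for genotype (2) numbered 0 with the replicate block, 1 without the sex term, with late outlier removal (Tk1) and with median centring (Ccnd1), and 1 to 4 with 1 liver left out. For sex (4) they numbered 1, 2 and 2 with the replicate block, late outlier removal and median centring, and 2 to 4 with 1 liver left out. The other alternatives left these counts within 1.5 times, and none passed for the interaction in any of 24. After the genotype group means were removed, correlations of same-numbered livers were 0.53, -0.43, 0.43, 0.51 and 0.22. Of the 5 WT livers, 2 correlated best with their own number. Pair 2 joins a male and a female, while each other pair is of 1 sex. With the replicate block the sex term therefore rests on pair 2 alone, which limits the sex counts under that block. Sex differences were left in the correlated values, so the correlations cannot decide whether the replicate numbers pair the livers.

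Tk1 passed in 23 of 25 tested alternatives (not with the replicate block, adjusted p = 0.075, or median centring), and Ccnd1 in 20 of 25 for genotype and 24 of 24 for sex. Ccnd1 reversed within slide 3 (-1.36), where the KO liver was male and the WT livers female. Ccnb1 passed for sex in 22 of 23 alternatives, but was not among the genes above background on all 10 arrays. Signal near background limits Ccnb1, Cdc6 and the 4 genes not tested.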
